A study of Homo sapiens with 2 samples.

Results

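The matrix metalloproteinases (MMP), the ADAM and ADAMTS metalloproteinases and the tissue inhibitors of metalloproteinases (TIMP) were described here in a glioblastoma culture that overexpressed a microRNA. Members were the genes whose symbol in the platform annotation begins with MMP, ADAM, ADAMTS or TIMP followed by a digit, at probe sets annotated to a single symbol. The rule gave 72 genes of 19775 named genes on the array, with 163 probe sets. They comprised 24 MMP, 23 ADAM, 21 ADAMTS and 4 TIMP symbols, of which 10 were pseudogenes, antisense, divergent or opposite-strand transcripts.

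Transcript signals were measured on 2 Affymetrix arrays, 1 per group. The miR-127-3p culture was, by its labels, LN229, an established glioblastoma line of human origin, carrying the plasmid pSUPER.neo-miR-127-3p, and the control was, by its labels, LN229 carrying pSUPER.neo alone. Because epithelial markers differed strongly between the arrays, as given below, it cannot be told from these data whether both cultures were the same line, and every difference below is one between these 2 cultures. Both were grown in DMEM with 10% FBS. The labels give neither the time after transfection nor whether the cultures were clones or pools. With 1 array per group there was no replicate check and no test between groups was made, and the number of arrays limits the precision. In a bulk culture, fewer cells of a type and less transcript per cell cannot be told apart.

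MMPs are secreted or membrane-anchored zinc enzymes that cleave collagens and other matrix proteins, and most are made as inactive precursors. ADAMs are membrane proteins that release the outer parts of growth factors and receptors from the cell surface, and ADAMTS enzymes are secreted and cut proteoglycans and procollagens. TIMPs bind and block these enzymes, TIMP3 with the broadest reach over ADAMs and ADAMTS enzymes. In glioblastoma the MMP2, MMP9 and MMP14 enzymes are known for their part in invasion of brain tissue. A microRNA lowers transcripts mainly through pairing of its seed, and the overexpressed one is shown for that reason, with bases 2 to 8 in capitals. The sequence is from RefSeq (GRCh38.p14, chr14:100883035-100883056, plus strand).
hsa-miR-127-3p: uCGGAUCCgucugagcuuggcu
Seed matches in the members' transcripts were not searched here.

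Over 54613 non-control probe sets the miR-127-3p array had a median signal of 83.3 arbitrary units and the control array one of 93.9, and the ratio of 3′ to 5′ signal for GAPDH was 0.97 (miR-127-3p) and 0.98 (control). The same ratio for ACTB was 2.95 (miR-127-3p) and 3.36 (control), and its part in the results was not tested. Of 12 glial and neural markers 10 passed the filter given below, of which 1 was at least 2-fold higher and 3 were lower. The higher one was SLC1A3, and the lower ones were SOX9, SOX2 and NES. SOX2 gave 1656 (miR-127-3p) and 3893 (control). NES gave 893 (miR-127-3p) and 1804 (control), a 2.04-fold lower signal close to the threshold. Values of SLC1A3 and SOX9 are given at the end. The shares of all genes were 5.06% higher and 8.67% lower. Among the markers within 2-fold, VIM, the intermediate filament vimentin, was at 48866 under miR-127-3p against 45584 in control cells. FABP7, a radial glial lipid-binding protein, was within 2-fold too, at 4556 (miR-127-3p) and 6421 (control). GFAP, the astrocyte filament, and AQP4, the astrocyte water channel, were below the array median on both arrays at their brightest probe sets. GFAP gave 14.9 (miR-127-3p) and 34.2 (control). Epithelial markers stood apart between the arrays: 9 of 11 were brighter on the control array, the summed signal was 7744 under miR-127-3p against 86340 in control cells, and 5 of 6 that passed the filter were lower by 2-fold or more under miR-127-3p, beside 8.67% of all genes. Of these 5, EPCAM, KRT19 and ESRP1 passed through the control array alone and so had to differ, while KRT8 and KRT18, keratins of simple epithelia, were above the median on both arrays, at 307 and 6906 under miR-127-3p against 16926 and 44863 in control cells. EPCAM, an epithelial adhesion molecule, gave 30.2 under miR-127-3p against 9181 in control cells. All comparisons below use these 2 arrays, and the part of this difference in them was not tested.

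Signals were compared as log2(signal + 1), as miR-127-3p minus control after subtraction of the median of all genes. Genes entered when their mean log2 signal over both arrays was above the median probe set, a signal of about 83.0, and each gene was read at its probe set of highest mean. Of the 72 members 33 entered. Among them 4 were brighter with miR-127-3p by 2-fold or more, or 12.1%, beside 5.06% of all 11985 genes that entered. A further 3 were dimmer by 2-fold or more, or 9.09%, beside 8.67% of all genes. The share of lower members was near that of all genes, and the share of higher members rests on 4 genes. The higher members were MMP3, ADAM28, ADAMTS20 and MMP28, and the lower ones were ADAM19, TIMP3 and MMP15. In RefSeq MMP3 lies on chromosome 11, ADAM28 on 8, ADAMTS20 on 12, MMP28 on 17, ADAM19 on 5, TIMP3 on 22 and MMP15 on 16. The remaining 26 stayed within 2-fold.

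Of the 33 entering members, 27 were above the array median on both arrays. The other 6 passed through 1 bright array and so had to differ: MMP3, ADAM28 and ADAMTS20 were bright with miR-127-3p only, and MMP15, ADAM21 and ADAMTS17 in the control only. With genes required to be above the median on both arrays, 1 of 27 members passed 2-fold upwards and 2 downwards, beside 4.1% and 6.22% of all genes. The median log2 ratio of the 33 members was -0.26, with quartiles of -0.67 and 0.49, against quartiles of -0.41 and 0.37 and a median of 0 for all genes. The members' median changed sign in 3 alternatives and has no settled direction. Where a gene was below the array median on its dimmer array, its fold is given below as a lower limit against that median, and no fold is given where both signals were below.

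**Figure D1:**
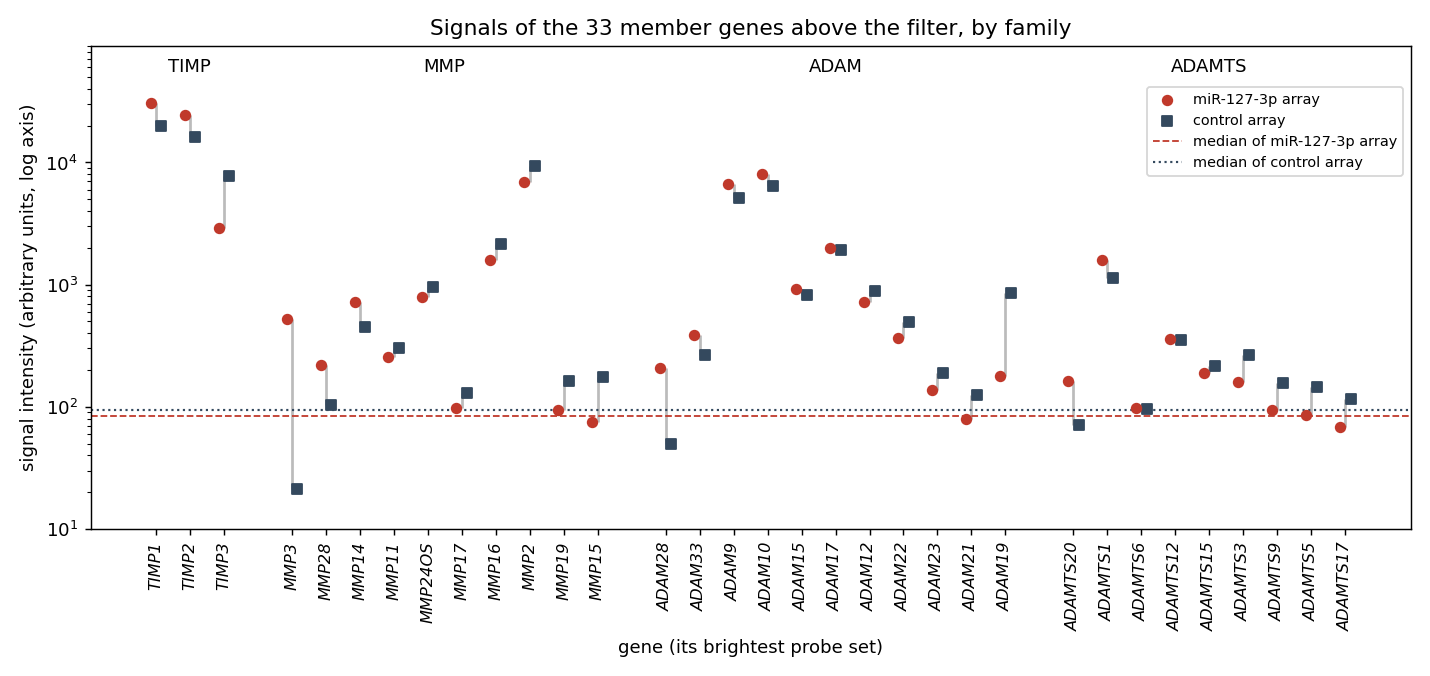
Signal intensity (log axis, arbitrary units) of the 33 entering members, grouped by family and ordered by log2 ratio, with the miR-127-3p array as a red circle left of the control array as a dark square. TIMP1 and TIMP2 reach 30896 and 24641 with miR-127-3p, and the MMP3 control signal of 21.1 lies far under the control array's median, the dotted line.

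**Figure D2:**
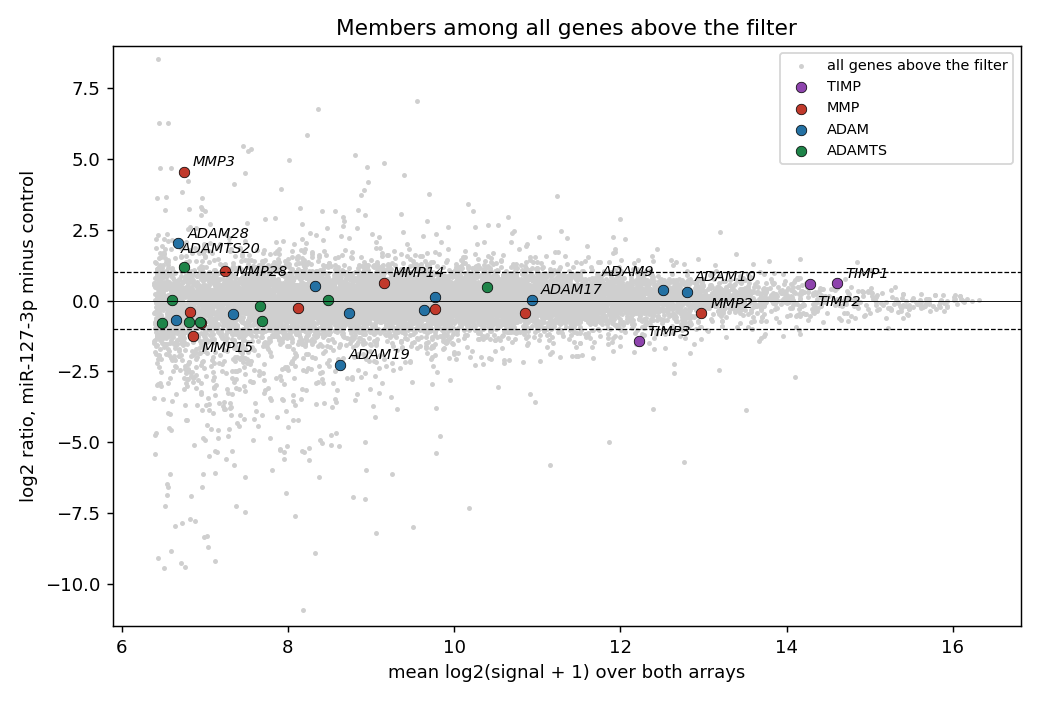
Log2 ratio (miR-127-3p minus control) against mean log2(signal + 1) over both arrays for 11985 genes in grey, with members coloured by family and 2-fold marked by dashed lines. Of 33 members 26 lie between the dashed lines, TIMP3 and ADAM19 lie below them with signals above the median on both arrays, and MMP3 is drawn at 4.56 from a control signal below the median, against 2.46 with signals floored there.

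The inhibitors differed in direction. TIMP1, a secreted inhibitor of most MMPs that also acts as a growth factor, gave 30896 under miR-127-3p against 20022 in control cells, a log2 ratio of 0.61. TIMP2, which blocks MMPs and also helps MMP14 activate the MMP2 precursor, gave 24641 (miR-127-3p) and 16207 (control) at its brightest probe set, a log2 ratio of 0.59. Both were brighter with miR-127-3p by about 1.5-fold, and the 3 probe sets of TIMP2 ranged from 0.15 to 0.86. TIMP3, the inhibitor that binds to the matrix, was lower. It gave 2926 under miR-127-3p against 7789 in control cells, a 2.68-fold lower signal, and 1814 (miR-127-3p) and 4181 (control) at the next probe set. The 2 others gave 1623 and 1320 under miR-127-3p, against 3873 and 3942 in control cells, so all 4 probe sets were dimmer with miR-127-3p, with log2 ratios between -1.59 and -1.22. All 4 carry a cross-match suffix, meaning that they can pick up related transcripts, so no TIMP3 value free of it was measured. TIMP4 was below the array median on both arrays, with 1.25 (miR-127-3p) and 11.6 (control). The spread of log2 ratios between probe sets of the same gene was 0.46 per probe set (SD, from 3293 genes with exactly 2 entering probe sets). It holds no variation between cultures.

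The gelatinases, which degrade denatured and basement membrane collagen, were represented by MMP2. MMP2 gave 6937 under miR-127-3p against 9335 in control cells, a log2 ratio of -0.44 that lies within the probe set spread. Its other 2 probe sets were below the array medians. MMP9 gave 64.3 (miR-127-3p) and 72.9 (control), below the median on both arrays, so no difference could be measured for it. The membrane-anchored MMPs differed among themselves. MMP14, the main activator of the MMP2 precursor, gave 715 under miR-127-3p against 454 in control cells at its brightest probe set, a log2 ratio of 0.64. Its other probe sets gave 270, 271 and 264 under miR-127-3p, against 148, 136 and 72.3 in control cells. All 4 were brighter with miR-127-3p, with log2 ratios from 0.64 to 1.84, and the highest of these came from a probe set below the control array's median.

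MMP15, another membrane-anchored enzyme, gave 75 under miR-127-3p against 176 in control cells and was at least 2.11-fold lower, with a log2 ratio of -0.97 at a pseudocount of 32. MMP16, which is anchored likewise and is known from brain tissue, gave 1597 (miR-127-3p) and 2143 (control), a log2 ratio of -0.44. Its 5 probe sets lay on both sides of 0, from -0.44 to 0.76, so no direction was measured. MMP17, which is held at the membrane by a lipid anchor, had a log2 ratio of -0.41 with signals of 97.3 (miR-127-3p) and 129 (control). MMP25, of the same lipid-anchored type, did not pass the filter, with 123 under miR-127-3p against 49.7 in control cells, and was at least 1.30-fold higher. Its other probe set gave 30.7 (miR-127-3p) and 56.3 (control), below the median on both arrays. MMP24 was below the median on both arrays at both of its probe sets.

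MMP3, stromelysin-1, which cleaves proteoglycans and activates other MMP precursors, was bright with miR-127-3p alone. It gave 523 under miR-127-3p against 21.1 in control cells and was at least 5.48-fold higher. It was measured by 1 probe set, so agreement within the array was not assessed. None of its neighbours on chromosome 11 was above the array median with miR-127-3p. For those below the median on both arrays it was not measured whether they differed as MMP3 did. In RefSeq order MMP7, MMP20, MMP27, MMP8, MMP10, MMP1, MMP3, MMP12 and MMP13 follow each other, with no other protein-coding gene start among these 9. MMP1, the interstitial collagenase next to MMP3, gave 57.2 (miR-127-3p) and 20.4 (control), and MMP10, stromelysin-2, gave 4.81 (miR-127-3p) and 40.6 (control), all below the array medians. MMP12, the macrophage elastase on the other side, gave 46.6 (miR-127-3p) and 3.81 (control), also below. MMP13, collagenase-3, gave 16.5 (miR-127-3p) and 2.25 (control).

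MMP7, matrilysin, is an enzyme made mainly by epithelial cells and known as a Wnt target in the gut. It gave 5.79 under miR-127-3p against 126 in control cells and was at least 1.52-fold lower. Its mean was under the filter, so it is not among the counted members. Of the 9 neighbours, MMP3 alone was above the array median with miR-127-3p and MMP7 alone in the control. The epithelial markers differed on the same arrays in the direction of MMP7, and their part in its value was not tested.

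**Figure D3:**
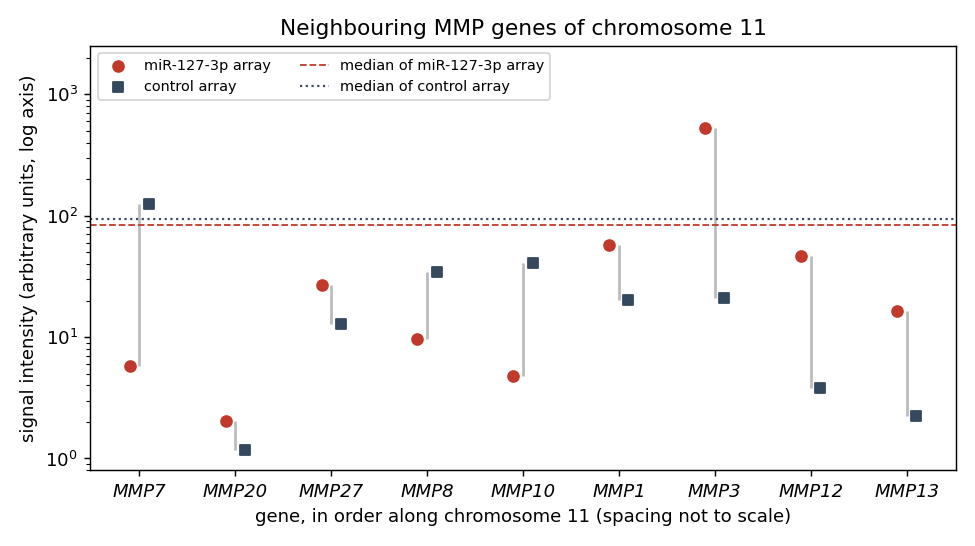
Signal intensity (log axis, arbitrary units) of 9 neighbouring MMP genes in their order along chromosome 11, with the miR-127-3p array as red circles left of the control array as dark squares and lines at each array's median. MMP3 at 523 with miR-127-3p and MMP7 at 126 in the control are the points above the lines, and the others lie beneath them.

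Promoter sequences are shown for MMP7 and MMP10 of the chromosome 11 neighbours and for the inhibitors that differed in direction, so that their base composition can be seen. RefSeq promoter windows, 250 bases before to 50 after the gene start, were matched by symbol for 39 of 72 members. The 5 matched windows of the chromosome 11 neighbours held 33.3% to 44.3% G and C, with a median of 36.3%. MMP1, MMP3, MMP12 and MMP13 had no matched window. The 34 other members ranged from 37.3% to 80.3%, with a median of 69.8%. Windows were searched on both strands for TGANTCA, the AP-1 site, for TATAAA, the TATA box, and for GGGCGG, the GC box; none of these motifs contains another. TGANTCA was found in 10.3% of member windows and in 7.76% of all 27305 windows. TATAAA was found in 23.1% and 12.0%, and GGGCGG in 66.7% and 44.6%. Among the chromosome 11 neighbours 3 of 5 held TGANTCA, 4 held TATAAA and none held GGGCGG, while of the other 34 members 1, 5 and 26 held them. A match is a description of letters and not of a bound site.

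The 120 bases before the start are printed, with matches of the 3 motifs in capitals.
MMP7: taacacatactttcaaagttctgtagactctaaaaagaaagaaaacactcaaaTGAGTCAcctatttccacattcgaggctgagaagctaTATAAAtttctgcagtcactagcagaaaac
MMP10: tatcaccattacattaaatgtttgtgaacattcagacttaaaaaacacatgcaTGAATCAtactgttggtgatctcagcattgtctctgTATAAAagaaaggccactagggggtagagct
TIMP1: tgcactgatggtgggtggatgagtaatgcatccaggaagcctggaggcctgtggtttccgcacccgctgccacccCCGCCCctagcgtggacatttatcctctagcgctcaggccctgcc
TIMP3: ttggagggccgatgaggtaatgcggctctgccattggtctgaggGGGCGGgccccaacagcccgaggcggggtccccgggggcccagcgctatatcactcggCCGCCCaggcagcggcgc
They lie in GRCh38.p14 at chr11:102530748-102530867 on the minus strand for MMP7, at chr11:102780629-102780748 on the minus strand for MMP10, at chrX:47582316-47582435 on the plus strand for TIMP1 and at chr22:32801585-32801704 on the plus strand for TIMP3. Counted back from the start, MMP7 and MMP10 both held an AP-1 match beginning at -67, with a TATA match at -30 in MMP7 and -31 in MMP10. TIMP1 held a GC box at -45, and TIMP3 held GC boxes at -76 and -18 and no TATA or AP-1 match in the printed stretch.

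The other secreted MMPs were mostly dim. MMP28, epilysin, gave 218 under miR-127-3p against 104 in control cells, a 2.07-fold higher signal that lies close to the threshold. Its log2 ratio was 0.95 with a pseudocount of 16 and 0.87 with one of 32, both under 2-fold. Its probe set carries a cross-match suffix, meaning that it can pick up related transcripts, and its other 4 probe sets were below the median on both arrays. MMP11, stromelysin-3, gave 254 (miR-127-3p) and 302 (control), a log2 ratio of -0.26, and MMP19 gave 94.1 (miR-127-3p) and 161 (control), a log2 ratio of -0.78. MMP20 and MMP26 gave no more than 3.03 on either array, and MMP21, MMP27 and MMP8 stayed below the medians too. MMP24OS, a gene on the strand opposite MMP24, gave 794 (miR-127-3p) and 961 (control) with 4 probe sets between -0.43 and 0.17, on both sides of 0.

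Among ADAM proteases the 2 best-known sheddases were close between the arrays. ADAM10, which cuts Notch receptors, cadherins and the amyloid precursor protein, gave 8035 under miR-127-3p against 6372 in control cells, with 3 probe sets from -0.03 to 0.55. ADAM17, the enzyme that releases tumour necrosis factor and ligands of the EGF receptor, gave 1990 (miR-127-3p) and 1933 (control), with 3 probe sets from -0.30 to 0.21. For both genes the probe sets lay on both sides of 0. ADAM9, a broadly expressed sheddase, gave 6679 (miR-127-3p) and 5097 (control), and ADAM15, a disintegrin that binds integrins, gave 918 (miR-127-3p) and 827 (control). Their log2 ratios of 0.38 and 0.14 were within the probe set spread. ADAM12, linked to muscle and to glioma growth in earlier work, gave 715 (miR-127-3p) and 885 (control), with 5 probe sets from -0.49 to 0.47.

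ADAM19, a protease known to cut neuregulin precursors, was the lowest entering member. It gave 180 under miR-127-3p against 858 in control cells, a 4.80-fold lower signal with a log2 ratio of -2.26. A second probe set gave 55.9 (miR-127-3p) and 98.6 (control), a log2 ratio of -0.82 with a limit of at least 1.19-fold lower. ADAM28, a protease first known from lymphocytes, gave 208 under miR-127-3p against 49.4 in control cells and was at least 2.19-fold higher. Its other 3 probe sets were below the median on both arrays. ADAM33, a protease named in work on asthma, gave 385 (miR-127-3p) and 265 (control), a log2 ratio of 0.53, and 97.6 (miR-127-3p) and 33.4 (control) at its other probe set. ADAM21 gave 79.3 (miR-127-3p) and 126 (control) and was at least 1.51-fold lower.

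The ADAMs without the zinc-binding protease motif act through adhesion. ADAM22, a neuronal receptor for LGI proteins, gave 365 under miR-127-3p against 494 in control cells, and its 4 entering probe sets ranged from -0.63 to -0.32. A further probe set, which did not pass the filter, gave 118 (miR-127-3p) and 39.6 (control) and lay on the opposite side, so the direction for ADAM22 depends on the probe set. ADAM23, a neuronal adhesion protein of the same group, gave 136 (miR-127-3p) and 189 (control), a log2 ratio of -0.48. ADAM2, ADAM11, ADAM18 and ADAM32 were below the median on both arrays at all probe sets, as were the 4 pseudogenes, with no signal above 31.8 under miR-127-3p or 35.3 in control cells. Of the 12 ADAMs with the motif 9 entered, and 6 of these had log2 ratios above 0.

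**Figure D4:**
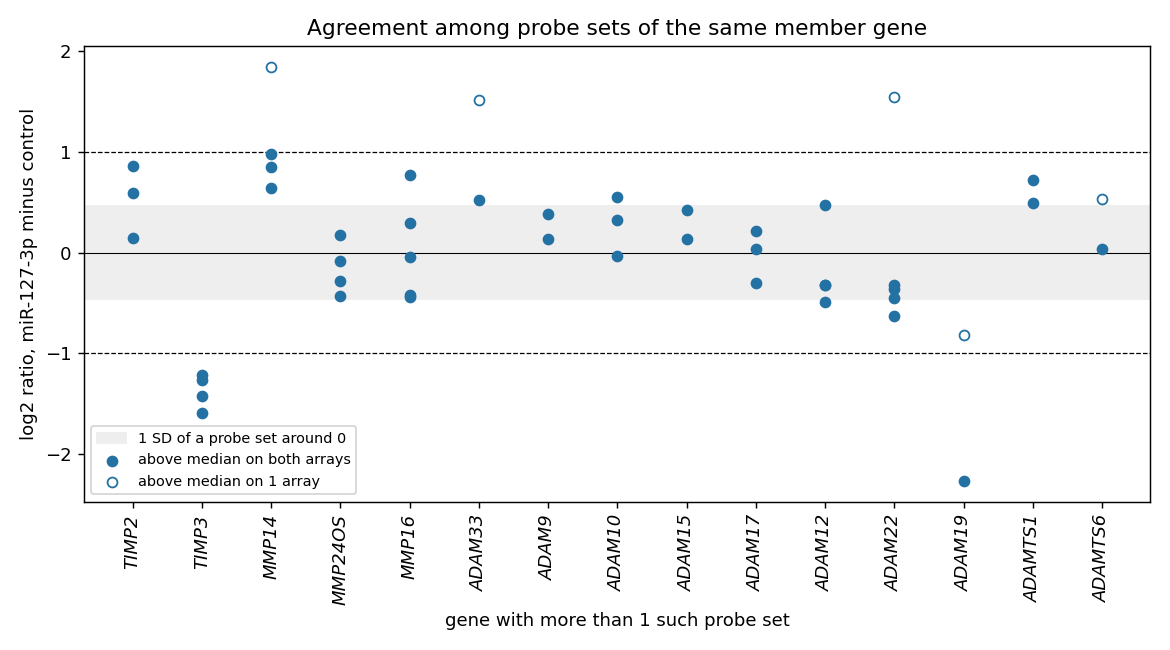
Log2 ratio (miR-127-3p minus control) of each probe set above its array's median on both arrays (filled) or on 1 array (open), for members with more than 1 such probe set. The grey band is the probe set spread of 0.46 on either side of 0, and TIMP3 has all 4 points below the lower 2-fold line while MMP14 has all 4 above 0.

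ADAMTS1, which cuts versican and aggrecan and holds back vessel growth, gave 1604 under miR-127-3p against 1134 in control cells, with log2 ratios of 0.49 and 0.71 at its 2 probe sets. Other proteoglycan-cutting members differed in direction. ADAMTS5, an aggrecanase, gave 85.6 (miR-127-3p) and 145 (control), a log2 ratio of -0.76, and ADAMTS9 gave 94.6 (miR-127-3p) and 157 (control), a log2 ratio of -0.74. ADAMTS15 gave 189 (miR-127-3p) and 214 (control). Each of these 3 was within 2-fold between the arrays, and ADAMTS5 and ADAMTS9 were close to the array median with miR-127-3p. ADAMTS20 gave 161 under miR-127-3p against 70.3 in control cells. Against the control array's median this is at least 1.70-fold higher, so its place past 2-fold rests on a dim signal, and with a pseudocount of 32 its log2 ratio was 0.91. A second probe set was below the medians.

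The procollagen-processing enzyme ADAMTS3 gave 159 under miR-127-3p against 264 in control cells, a log2 ratio of -0.73, while ADAMTS2 and ADAMTS14 were below the median on both arrays. ADAMTS12, which cuts cartilage oligomeric matrix protein, gave 361 (miR-127-3p) and 354 (control), and ADAMTS6 gave 98.0 (miR-127-3p) and 95.1 (control). Their log2 ratios of 0.02 and 0.03 were the closest to 0 of the entering ADAMTS members. ADAMTS17 gave 67.8 (miR-127-3p) and 116 (control) and was at least 1.40-fold lower. ADAMTS13, which cuts von Willebrand factor, gave 44.3 (miR-127-3p) and 132 (control) at its brightest probe set. There it was at least 1.59-fold lower, though its mean did not pass the filter. Its second probe set, of nearly the same mean, gave 79.3 (miR-127-3p) and 72.9 (control), below the median on both arrays. The limit therefore holds for the first probe set alone. ADAMTS18 gave 68.3 (miR-127-3p) and 75.9 (control) at its brightest probe set but 13.8 (miR-127-3p) and 343 (control) at its second, a limit of at least 4.11-fold lower at that probe set alone. ADAMTS16 gave 50.5 (miR-127-3p) and 93.9 (control), at the control array's median.

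In all, 39 members did not enter. Of these, MMP7, MMP25, ADAMTS13, ADAMTS16 and ADAMTS18 had a probe set above the median on 1 array, and 34 had none on either. Across all 163 member probe sets, 93 were below the median on both arrays, and no difference is drawn from them. Of 12 entering members with more than 1 entering probe set, 7 had all of them on the same side of 0 and 5 had them on both sides. The other 21 entering members had 1 such probe set.

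Genes that activate or hold MMPs at the cell surface, a list of 20 chosen with earlier results known, had 14 entering genes with a median log2 ratio of 0.14. None passed 2-fold upwards and 4 did downwards, beside 5.06% and 8.67% of all genes. A2M, the broad protease trap alpha-2-macroglobulin, gave 1424 under miR-127-3p against 20234 in control cells, a 14.3-fold lower signal. PCSK5, a proprotein convertase, gave 24.5 (miR-127-3p) and 473 (control) and was at least 5.67-fold lower. It passed the filter through the control array alone and so had to differ. FURIN, the convertase that activates MMP14 and many ADAMs, had 373 (miR-127-3p) and 218 (control), a log2 ratio of 0.76, and CAV1, caveolin-1, had 12323 (miR-127-3p) and 7529 (control), a log2 ratio of 0.70.

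Partners of ADAM10 and ADAM17 had 9 entering genes, with a median of -0.57, none at least 2-fold higher and 4 lower. Of all genes 5.06% were higher and 8.67% lower by 2-fold or more. TSPAN15, a tetraspanin that carries ADAM10 to the surface, gave 143 under miR-127-3p against 511 in control cells, a 3.57-fold lower signal. RHBDF2, the iRhom2 protein that matures ADAM17, gave 175 (miR-127-3p) and 490 (control) and was 2.81-fold lower. TSPAN17, another ADAM10 tetraspanin, gave 1100 (miR-127-3p) and 562 (control), a log2 ratio of 0.96. The proteases ADAM10 and ADAM17 themselves had probe sets on both sides of 0, as given above. Of 16 entering substrates of these enzymes 2 passed 2-fold upwards and 1 downwards, beside the same 5.06% and 8.67% of all genes. Their median was 0.35. L1CAM, a neural adhesion molecule, gave 1799 (miR-127-3p) and 837 (control), a 2.13-fold higher signal, and NRG1, neuregulin-1, gave 210 (miR-127-3p) and 54.1 (control) and was at least 2.21-fold higher. TNFRSF1B, a tumour necrosis factor receptor, gave 39.5 (miR-127-3p) and 565 (control) and was at least 6.77-fold lower. CX3CL1, a membrane-bound chemokine, had a log2 ratio of -0.77. NRG1 passed the filter through the miR-127-3p array alone and TNFRSF1B through the control array alone, so both had to differ. CDH1, a cadherin, did not pass it, with 7.05 (miR-127-3p) and 775 (control), at least 9.28-fold lower.

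Relatives and substrates of ADAMTS enzymes had 9 entering genes, with 1 at least 2-fold higher, 2 lower and a median of 0.04. Of all genes 5.06% were higher and 8.67% lower by 2-fold or more. THSD4, an ADAMTS-like matrix protein, gave 3752 under miR-127-3p against 578 in control cells, a 6.43-fold higher signal. Its 2 entering probe sets of 6 were at 1.74 and 2.69. VCAN, the proteoglycan versican, gave 16158 (miR-127-3p) and 9026 (control), with 5 probe sets from 0.83 to 1.08. ACAN, the proteoglycan aggrecan, gave 70.9 (miR-127-3p) and 226 (control) and was at least 2.71-fold lower. It passed the filter through the control array alone and so had to differ. COL1A1, a chain of type I collagen, gave 139 (miR-127-3p) and 536 (control), but its 3 entering probe sets of 5 ranged from -1.95 to -0.04. Of 6 entering astacin and other metalloendopeptidases 3 passed 2-fold upwards and 1 downwards, beside the same 5.06% and 8.67% of all genes. Their median was 0.88. PAPPA, which cuts IGF-binding proteins, gave 2083 (miR-127-3p) and 607 (control), a 3.40-fold higher signal, with 7 entering probe sets from 0.62 to 1.97. PHEX, an endopeptidase of phosphate balance, had log2 ratios of 1.17 and -0.16 at its 2 probe sets. ECE2, an endothelin-converting enzyme, gave 78.2 (miR-127-3p) and 202 (control) and was at least 2.43-fold lower. It passed the filter through the control array alone and so had to differ.

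Of 17 entering transcription factors known to act on MMP genes, 2 passed 2-fold upwards and 2 downwards, beside 5.06% and 8.67% of all genes. Their median was -0.13. FOSL1, an AP-1 subunit, gave 865 under miR-127-3p against 393 in control cells, a 2.18-fold higher signal. RUNX2, a bone and cartilage factor that acts on MMP13, gave 2668 (miR-127-3p) and 1271 (control), with 3 entering probe sets of 6 from 0.62 to 1.63. FOS, another AP-1 subunit, gave 203 (miR-127-3p) and 422 (control), a 2.09-fold lower signal. ETS2, an ETS family factor, gave 528 (miR-127-3p) and 1674 (control), a 3.19-fold lower signal, with its second entering probe set at -1.25.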

How the data were processed

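The authors deposited signal intensities per probe set, on a linear scale as judged from the numbers, with equal means of 500.1 on both arrays after trimming 2% at each end. The labels' protocols name Trizol extraction and a biotin labelling kit of the Affymetrix 3′ type. The summarising software is not given in the sources used here. Detection calls were not used. Groups were taken from the genotype labels. Symbols came from the platform annotation and were updated through Entrez identifiers against RefSeq genes of GRCh38.p14. Of 54613 non-control probe sets 41091 had 1 symbol, 1801 several and 11721 were unnamed here.

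A pseudocount of 1 was used, and folds are 2 to the power of the centred log2 ratio. Ratios of dim genes depend on the pseudocount, and the log2 ratio of MMP3 fell from 4.56 to 3.38 with one of 32. The array median used as a floor for limits is no detection call. Alternatives were thresholds of 1.5-fold and 3-fold, 4 other filters, 4 other scalings, pseudocounts of 16 and 32, a floor at each array's median, averaging of the entering probe sets of a gene, and leaving out probe sets that carry a cross-match suffix. Members named singly were those past 2-fold at a probe set above the median on 1 array, the TIMPs, the 4 brightest entering genes of each other family, the chromosome 11 neighbours, and ADAM10, ADAM17, MMP2, MMP9 and MMP14. Up to 2 entering genes per direction were named in other lists, apart from CDH1, TSPAN5 and the cell type markers. Genes under the filter, such as PLAU and ST14, were otherwise left out there even where 1 array was bright. The other members were added after their values were seen. The members and lists were chosen with earlier results of these data known. The procedure was run on simulated arrays with known folds, which checks the calculation only and holds no variation between cultures. Python 3.11.15, numpy 2.4.6, pandas 2.3.3, statsmodels 0.14.6 and matplotlib 3.10.9 were used.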

Additional observations from a re-analysis of the deposited data

How the results depend on the processing

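Against 4 members at least 2-fold higher and 3 lower, the counts were 7 and 9 at a 1.5-fold threshold, beside 14.5% and 18.1% of all genes, 2 and 1 at 3-fold, beside 1.57% and 3.94%, and 14 and 15 of 72 with no filter, where 12.8% and 17.2% of all genes passed. With the filter at the 75th percentile the counts were 0 and 1 of 13, beside 3.31% and 4.95%, by construction from fewer genes. With genes whose signal passed the 75th percentile of either array, 1 of 16 was higher and 2 lower, beside 4.27% and 7.66%. The higher count was also 1 with genes above the median on both arrays. A pseudocount of 16 gave 3 and 4 of 34, beside 4.69% and 8.29%, without MMP28. One of 32 gave 2 and 3 of 34, beside 4.31% and 7.81%, without MMP28, ADAMTS20 and MMP15. Both lower counts hold a member that was not counted lower with a pseudocount of 1. A floor at the array median gave 3 and 3 of 33, beside 4.63% and 8.04%, without ADAMTS20. The mean of probe sets gave 5 and 3 of 33, beside 4.77% and 8.18%, with MMP14 at 1.07. Probe sets without a cross-match suffix gave 3 and 1 of 22, beside 5.6% and 8.84%. There TIMP3, MMP15 and MMP28 had no entering probe set, and ADAM19 was the lower gene. The members' median of -0.26 became -0.16 with no filter, 0.10 with the filter at the 75th percentile, 0.052 with it on either array, -0.15 with the mean of probe sets, and 0.035 without cross-match suffixes, and the cause was not tested. Under the 4 scaling alternatives both counts stayed at 4 and 3, beside 5.21% to 6.2% and 7.53% to 8.51% of all genes. Of 270 single gene values 263 moved by less than the probe set spread, and the other 7 concerned MMP3, ADAM28, MMP16 and MMP24OS. None of the called genes changed sign under these alternatives. With signals floored at the array median MMP3 was at 2.46 and ADAM28 at 1.13. No paired analysis was possible because each group has 1 array. Signals near or under the array median limit most members.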

Other observations

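Few markers of macrophages and endothelium entered, so most of their differences were not measured. Of 7 macrophage and microglia markers on the array 1 entered, CD14, a surface receptor of monocytes, with 68.2 under miR-127-3p against 104 in control cells, and PTPRC, the leukocyte marker CD45, was at 46.2 (miR-127-3p) and 23.9 (control). Of 6 endothelial markers PECAM1 alone entered, with 302 (miR-127-3p) and 245 (control), and CDH5 and KDR were below the array median on both arrays. Of 5 entering fibroblast markers DCN, the proteoglycan decorin, was 2.22-fold higher, with 4 entering probe sets of 7 from 0.10 to 1.16. COL1A1 was 3.86-fold lower at its brightest probe set, with 3 entering probe sets from -1.95 to -0.04. LUM, lumican, gave 8320 (miR-127-3p) and 7725 (control). Of 10 entering glial and neural markers 1 was at least 2-fold higher and 3 were lower, beside 5.06% and 8.67% of all genes. SLC1A3, a glial glutamate transporter, gave 2689 (miR-127-3p) and 73.9 (control) and was at least 28.1-fold higher. It passed the filter through the miR-127-3p array alone and so had to differ. SOX9, a glial transcription factor, gave 1616 (miR-127-3p) and 4981 (control) and was 3.11-fold lower.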
